A study of Mus musculus with 6 samples.

Results

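To describe how the unfolded protein response was expressed after knockdown of Pkm, 10 genes of this response were read from RNA sequencing of primary mouse chondrocytes: Ern1, Atf6, Xbp1, Hspa5, Hsp90b1, Dnajb9, Sdf2l1, Creld2, Manf and Herpud1. They were chosen by name, and all 10 were found among the 55416 genes of the count table. The 6 libraries came from chondrocytes of neonatal mouse knee joints grown in DMEM/F12 medium with fetal bovine serum. In 3 libraries (siNC, genotype WT) the cells had received a control small interfering RNA, and in 3 (siPkm2) an siRNA against Pkm, the gene of the glycolytic enzyme pyruvate kinase M. The titles name all 3 knockdown libraries siPKM2, while the genotype field reads PKM2 knockdown, PKM3 knockdown and PKM4 knockdown for replicates 1, 2 and 3, and the titles were followed here. The labels name no cytokine or drug treatment in either group, and siRNA acts transiently on cells that keep the gene itself.

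The unfolded protein response is the program by which a cell adjusts the endoplasmic reticulum (ER) to its load of unfolded secretory protein. Sensors in the ER membrane, among them IRE1 (the product of Ern1), ATF6 and PERK, are held inactive in part by the chaperone BiP (the product of Hspa5) and are released when unfolded protein occupies it. Active IRE1 splices the mRNA of the transcription factor Xbp1, and cleaved ATF6 enters the nucleus, and both then raise genes for chaperones and for the removal of misfolded protein. Chondrocytes secrete large amounts of collagen and proteoglycan, and the response is known to be engaged when they differentiate.

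ATF6 and XBP1 are known to act through short promoter elements, and these are shown because they connect the sensors with their targets among the 10 genes. The ER stress response element (ERSE, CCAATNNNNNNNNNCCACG), the ERSE-II element (ATTGGNCCACG) and the unfolded protein response element (UPRE, TGACGTGG) were searched on both strands of the RefSeq promoter windows, each holding 250 bases before and 50 after the gene start on GRCm38.p6. Of the 10 genes 8 had a window. Atf6 and Manf had none. The 4 windows that held a match are printed 5′ to 3′ on the strand of the gene, with the matched bases in capitals.
Hspa5 (chr2:34771840-34772139, plus strand): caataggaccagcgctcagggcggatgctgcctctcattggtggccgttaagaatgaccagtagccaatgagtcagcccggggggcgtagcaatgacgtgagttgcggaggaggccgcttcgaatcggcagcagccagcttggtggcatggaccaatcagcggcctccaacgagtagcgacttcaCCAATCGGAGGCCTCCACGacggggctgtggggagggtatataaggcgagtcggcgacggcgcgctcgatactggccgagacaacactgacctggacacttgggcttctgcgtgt
Hsp90b1 (chr10:86705395-86705694, minus strand): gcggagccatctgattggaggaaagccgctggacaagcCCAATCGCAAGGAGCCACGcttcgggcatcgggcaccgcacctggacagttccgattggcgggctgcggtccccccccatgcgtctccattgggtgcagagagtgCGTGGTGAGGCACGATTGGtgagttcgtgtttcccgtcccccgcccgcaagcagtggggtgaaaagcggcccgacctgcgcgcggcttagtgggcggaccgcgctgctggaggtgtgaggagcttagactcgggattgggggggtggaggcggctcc
Creld2 (chr15:88819396-88819695, plus strand): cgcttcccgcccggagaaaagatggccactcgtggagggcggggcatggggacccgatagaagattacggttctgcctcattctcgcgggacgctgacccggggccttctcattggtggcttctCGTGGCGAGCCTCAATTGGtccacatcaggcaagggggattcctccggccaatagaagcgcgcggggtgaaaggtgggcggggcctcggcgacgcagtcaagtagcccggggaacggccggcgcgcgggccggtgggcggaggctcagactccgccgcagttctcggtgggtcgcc
Herpud1 (chr8:94386179-94386478, plus strand): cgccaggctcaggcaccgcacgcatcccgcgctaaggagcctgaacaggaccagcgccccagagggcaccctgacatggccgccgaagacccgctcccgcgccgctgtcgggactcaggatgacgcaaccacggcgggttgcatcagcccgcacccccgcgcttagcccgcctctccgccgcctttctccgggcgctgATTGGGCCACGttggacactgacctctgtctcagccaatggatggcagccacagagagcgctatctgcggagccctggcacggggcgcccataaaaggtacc

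ERSE was found in Hspa5, Hsp90b1 and Creld2. It lay 65 bases before the start of Hspa5 and, on the opposite strand, 126 bases before the start of Creld2. Hsp90b1 held it at 212 bases and, on the opposite strand, at 107 bases. All distances here run from the start in RefSeq. The gene positions printed further below are from GENCODE, which places some starts elsewhere. In GENCODE the start of Hspa5 lies before its ERSE, and that of Dnajb9 lies before its whole window. No base upstream of that start of Dnajb9 was therefore searched. Across the 32851 windows of all genes ERSE was present in 39, or 0.119%. ERSE-II, found in 12 windows (0.0365%), lay 52 bases before the start of Herpud1. UPRE was present in 222 windows (0.676%) and in none of the 8 windows examined here, so that Ern1, Xbp1, Dnajb9 and Sdf2l1 carried none of the 3 exact motifs in this stretch.

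An siRNA can also act on other mRNAs through its seed, the bases 2 to 8 of its guide strand, so the 3′ UTRs of the 10 genes were searched for the seed sites of the 3 siRNAs against Pkm that the study lists. The study took siPkm2 #3 forward, and neither the labels nor the methods say which of them the sequenced cultures received. The guide of siPkm2 #3 and the site it matches in Dnajb9, at base 1033 of a 3′ UTR of 1395 bases, are printed with the seed and its complement in capitals.
siPkm2 #3 guide: uGUUUCUCcagacagcaug
Dnajb9 site: tgtgtgagtaaGAGAAACtataaatattt
Dnajb9 was the only one of the 10 genes with this site, which 2164 of 13202 genes with a 3′ UTR carried (16.4%). The site of siPkm2 #1 (TGTACCA, 10.9% of genes) was present in Atf6 and Ern1, and that of siPkm2 #2 (AAGAATG, 15.9%) in Sdf2l1.

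The libraries held between 22316996 and 25691029 estimated read counts. Pkm, whose count does not separate its isoforms, stood at 2335, 2746 and 1674 CPM (counts scaled to a common library size with TMM factors, the trimmed mean of M values) in siNC and at 336, 541 and 309 CPM in siPkm2. The groups did not overlap, and the log2 fold change of siPkm2 against siNC was -2.51 ± 0.33 (SE, n = 3 per group, edgeR quasi-likelihood test, Benjamini-Hochberg adjusted p = 0.0738). Replicates 2 of both groups stood apart from the other 4 libraries. Summed over 12 chondrocyte markers, siNC gave 49300, 10317 and 48284 CPM and siPkm2 42576, 14394 and 41848 CPM for replicates 1, 2 and 3. Col2a1, the main cartilage collagen, was at 8526 and 11449 CPM in these 2 libraries and at 27892 CPM or more in the others. Acan was at 233 and 470.4 against at least 2566, and Sox9 at 82.5 and 128 against at least 145. Col2a1 gave most of the chondrocyte sum in each library. Within pairs 2 of the 12 markers, Matn3 and Prg4, were higher and 0 lower (adjusted p under 0.05, edgeR with the block). That fit called 12.3% of all genes higher and 10.8% lower, and the median log2 fold change of the 12 was 0.31. Of 8 macrophage markers Cd68 alone stood out, at 55.5 and 33.4 CPM in the libraries of replicate 2 and at most 11.8 CPM in the others, while Lyz2 (2.004 to 3.63 CPM) and Csf1r (0.561 to 2.14 CPM) were low in all 6 libraries and the other 5 were at or near 0. The sum of 7 osteoblast markers was at 482, 76.1 and 299 CPM in siNC and at 209, 82.1 and 115 CPM in siPkm2, and of these Ibsp was lower within pairs (log2 fold change -1.45, adjusted p = 0.0278, edgeR with the block). Summed over 8 fibroblast markers, siNC gave 8698, 8502 and 15909 CPM and siPkm2 5615, 10178 and 11545 CPM. This sum, most of it Col1a1 and Col1a2, was lower in pairs 1 and 3 and higher in pair 2. The 7 tested had a median log2 fold change of -0.38 within pairs. The only one called, Cd34, was higher (0.49, adjusted p = 0.0274, edgeR with the block). The part of these differences in the results was not tested, and in bulk RNA fewer cells of a type and less RNA per cell cannot be told apart. Libraries with the same number deviated together from their group means (r = 0.664, 0.756 and 0.646 across genes, against at most 0.158 for different numbers). Part of this contrast is built in, because deviations from a group's own mean sum to 0 and high values for same numbers lower the others. Values are therefore also given from a fit with the replicate number as a block, which compares the groups within pairs.

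Per transcript length the 2 large chaperones of the ER lumen led the list. In siNC, Hsp90b1 was at 610 ± 76.5 TPM, the deposited level scaled for transcript length and depth (SD, n = 3), and Hspa5 at 573 ± 155 TPM. Manf followed at 372 ± 74.6 TPM, then Xbp1 at 114 ± 17.8 TPM and Herpud1 at 104 ± 56.7 TPM. Creld2 and Sdf2l1 lay close together at 51.7 and 49.9 TPM, and Dnajb9, Ern1 and Atf6 were lowest at 33.9, 29.3 and 23.2 TPM. The differences between Hsp90b1 and Hspa5, between Xbp1 and Herpud1, between Creld2 and Sdf2l1, and between Dnajb9 and Ern1 were within their SDs. Herpud1 lay above Creld2 by less than its own SD but by more than that of Creld2 (5.86 TPM). In replicate 2 of siNC it was the lower of these, at 39.9 against 45.1 TPM. Ern1 lay above Atf6 by less than its own SD (7.77 TPM) but by more than that of Atf6 (3.40 TPM). Dnajb9 (SD 9.17 TPM) lay further below Sdf2l1 (SD 5.60 TPM) than either SD. In siPkm2 the order began with Hspa5 at 742 ± 247 TPM and Hsp90b1 at 522 ± 73.8 TPM, and Dnajb9 came last at 22.9 ± 5.69 TPM. Hspa5 led by less than its own SD but by more than that of Hsp90b1. Dnajb9 lay below Atf6 (28.3 ± 9.74 TPM) by less than either SD. The 10 genes together took 2250, 1541 and 2090.35 TPM in siNC and 2440, 1556 and 2403 TPM in siPkm2, of which Hspa5 and Hsp90b1 gave between 57.5% and 60.9%.

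Whether knockdown of Pkm changed these genes was asked by comparing siPkm2 with siNC over all 15269 genes that passed the filter on low counts, and all 10 genes passed it. Within pairs Sdf2l1, Creld2 and Hspa5 rose by 1.435, 1.277 and 1.345 fold and Dnajb9 fell to 0.697 of its control level. In the fit without the block 0 of the 10 genes passed an adjusted p of 0.05, as did 0% of all genes, and the smallest adjusted p over all genes was 0.0519 (edgeR). At an unadjusted p under 0.05 there was 1 of the 10, Sdf2l1, and 17.6% of all genes, or 2690. DESeq2 without the block called 829 genes and 0 of the 10. With the block 3 of the 10 were higher and 1 was lower at an adjusted p under 0.05, where 12.3% of all genes were higher and 10.8% lower. None of the 10 passed this test with a fold over 2, which 5.83% of all genes did. The median log2 fold change of the 10 was 0.22 without and 0.25 with the block, against -0.02 and -0.01 for all genes. Without the block it rested on single libraries: it was 0.075 without replicate 1 and 0.438 without replicate 2 of siPkm2, and 0.424 without replicate 1 and 0.141 without replicate 2 of siNC.

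The block fit depended on the pairs it held. Without pair 2, 5 of the 10 were higher (the same 3 with Atf6 and Ern1) and 1 lower (Dnajb9), against 19.8% and 19.3% of all genes in the same fit. Without pair 1 or without pair 3 it called 0 genes of all tested, and the smallest adjusted p among the 10 was 0.0949 and 0.134 (edgeR). Counted by library, 5 of the 10 were higher in siPkm2 in all 3 pairs (Hspa5, Sdf2l1, Creld2, Manf and Herpud1) and 2 were lower in all 3 (Hsp90b1 and Dnajb9), beside 30.5% and 30.6% of all genes. Only Sdf2l1 had groups that did not overlap upwards, which 12.0% of all genes had, and none of the 10 had groups that did not overlap downwards, which 12.3% had.

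**Figure D1:**
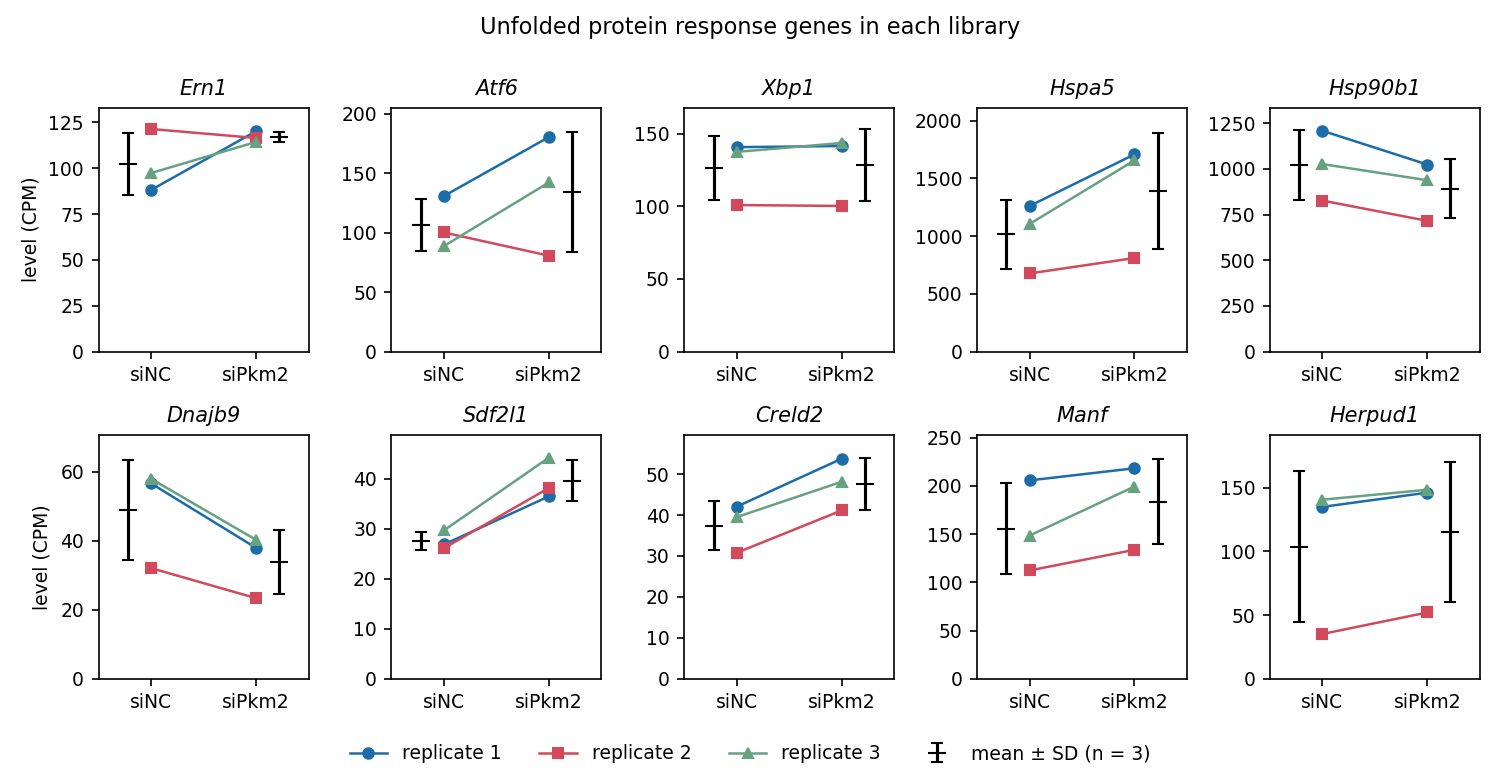
Level of each of the 10 genes (CPM, linear axis from 0) in siNC and siPkm2, with a line joining the libraries of the same replicate number and bars for mean ± SD (n = 3). Replicate 2 is the lowest line in both groups for Xbp1, Hspa5, Hsp90b1, Dnajb9, Creld2, Manf and Herpud1. The lines of Sdf2l1, Creld2, Hspa5, Manf and Herpud1 rise and those of Dnajb9 and Hsp90b1 fall in all 3 pairs.

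The sensors and their factor came first. Ern1 encodes IRE1, the kinase and endonuclease that splices Xbp1 (chr11:106394650-106487852, minus strand, GRCm38). It was at 88.2, 121 and 97.4 CPM in siNC and at 120.2, 116 and 114 CPM in siPkm2. The siPkm2 libraries lay within 6 CPM of each other and inside the range of siNC, and pair 2 moved against the others. Its log2 fold change was 0.19 ± 0.15 (SE, adjusted p = 0.567, edgeR) and 0.21 with the block (adjusted p = 0.239, edgeR). Leaving out pair 2 gave 0.33 (adjusted p = 0.0258, edgeR with the block). Leaving out pair 1 or pair 3 gave 0.09 and 0.20 (adjusted p = 0.738 and 0.534, edgeR with the block).

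Atf6, the membrane-bound transcription factor (chr1:170704674-170867771, minus strand), was at 131, 100.2 and 88.8 CPM in siNC and at 180.4, 80.7 and 142 CPM in siPkm2. Pairs 1 and 3 were higher after knockdown by 0.46 and 0.68 on the log2 scale and pair 2 was lower, with a difference of -0.31. The log2 fold change was 0.33 ± 0.31 (adjusted p = 0.636, edgeR). With the block it was 0.28 ± 0.20 (adjusted p = 0.339, edgeR). Leaving out pair 2, which went the other way, gave 0.56 ± 0.09 (adjusted p = 0.00437, edgeR with the block). Leaving out pair 1 or pair 3 gave 0.18 and 0.08 (adjusted p = 0.688 and 0.857, edgeR with the block).

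Xbp1 encodes the factor that IRE1 activates by splicing (chr11:5520659-5525893, plus strand). It was at 141, 101 and 137 CPM in siNC and at 141, 100.2 and 144 CPM in siPkm2. The pairs were nearly level, with log2 differences of 0.01, -0.01 and 0.06, and the fitted value was 0.02 ± 0.08 (adjusted p = 0.861, edgeR with the block). These counts are per gene and do not separate spliced from unspliced Xbp1.

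Of the chaperones, Hspa5 encodes BiP, which binds unfolded chains in the lumen (chr2:34771970-34777547, plus strand). It was at 1260.5, 677 and 1105 CPM in siNC and at 1708, 810.1 and 1656 CPM in siPkm2. It was higher after knockdown in each pair, by 0.44, 0.26 and 0.58 on the log2 scale, but replicate 2 of siPkm2 lay below replicates 1 and 3 of siNC and the groups overlapped. The log2 fold change was 0.46 ± 0.38 without the block (adjusted p = 0.584, edgeR). Within pairs it was 0.43 ± 0.11 (adjusted p = 0.0437, edgeR), and 0.50 ± 0.10 without pair 2.

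Hsp90b1 encodes GRP94, the ER member of the HSP90 family (chr10:86690209-86705509, minus strand). It was at 1209, 827 and 1026 CPM in siNC and at 1024, 715 and 938 CPM in siPkm2. It was lower in each pair by a small margin (-0.24, -0.21 and -0.13 on the log2 scale), which did not pass the test. The log2 fold change was -0.19 ± 0.24, and -0.19 ± 0.09 within pairs (adjusted p = 0.176, edgeR).

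Dnajb9 encodes ERdj4, a J-domain co-chaperone that brings BiP to its substrates and to IRE1 (chr12:44205559-44210326, minus strand). It was at 56.5, 32.0 and 57.9 CPM in siNC and at 37.9, 23.3 and 40.2 CPM in siPkm2. Every pair was lower after knockdown, by differences of -0.57, -0.45 and -0.52, while replicate 2 of siNC lay within the siPkm2 range. The log2 fold change was -0.53 ± 0.31 without the block (adjusted p = 0.422) and -0.52 ± 0.08 within pairs (adjusted p = 0.0173, both edgeR). It is the gene that carries the printed site of siPkm2 #3, whose part in the fall was not tested.

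Sdf2l1 encodes an ER-resident partner of BiP and ERdj3 (chr16:17130138-17132383, minus strand). It was at 26.9, 26.1 and 29.7 CPM in siNC and at 36.5, 38.2 and 44.2 CPM in siPkm2. It was the only one of the 10 genes whose siPkm2 libraries all lay above all siNC libraries. The log2 fold change was 0.52 ± 0.14 (adjusted p = 0.159, edgeR), and the exact two-sided permutation test gave p = 0.1, the smallest that 3 against 3 libraries allow. Within pairs it was 0.52 ± 0.09 (adjusted p = 0.0183, edgeR).

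Creld2 encodes a protein of the ER that is induced by ER stress (chr15:88819646-88826683, plus strand). It was at 42.0, 30.8 and 39.5 CPM in siNC and at 53.7, 41.1 and 48.1 CPM in siPkm2. All pairs were higher, by 0.35, 0.41 and 0.28, and the groups overlapped through replicate 2 of siPkm2, which lay below replicate 1 of siNC. The log2 fold change was 0.35 ± 0.18 (adjusted p = 0.366) and within pairs 0.35 ± 0.08 (adjusted p = 0.0358, both edgeR).

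Manf encodes a small secreted ER protein (chr9:106838312-106891979, minus strand). It was at 206, 112 and 148 CPM in siNC and at 218, 134 and 199 CPM in siPkm2. Its pairs were higher by 0.09, 0.25 and 0.42, and the fitted value within pairs was 0.25 ± 0.10 (adjusted p = 0.114, edgeR). Herpud1 encodes a membrane protein that serves ER-associated degradation (ERAD), the disposal of misfolded proteins (chr8:94386438-94395377, plus strand). It was at 135, 35.2 and 141 CPM in siNC and at 146, 52.1 and 148 CPM in siPkm2. Replicate 2 stood at 0.256 of the mean of the other siNC libraries and at 0.354 of that of the other siPkm2 libraries, the lowest such ratio in the list, and the log2 difference was 0.56 in pair 2 against 0.11 and 0.08 in the others. The value within pairs was 0.25 ± 0.12 (adjusted p = 0.182, edgeR), and 0.09 ± 0.08 without pair 2.

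**Figure D2:**
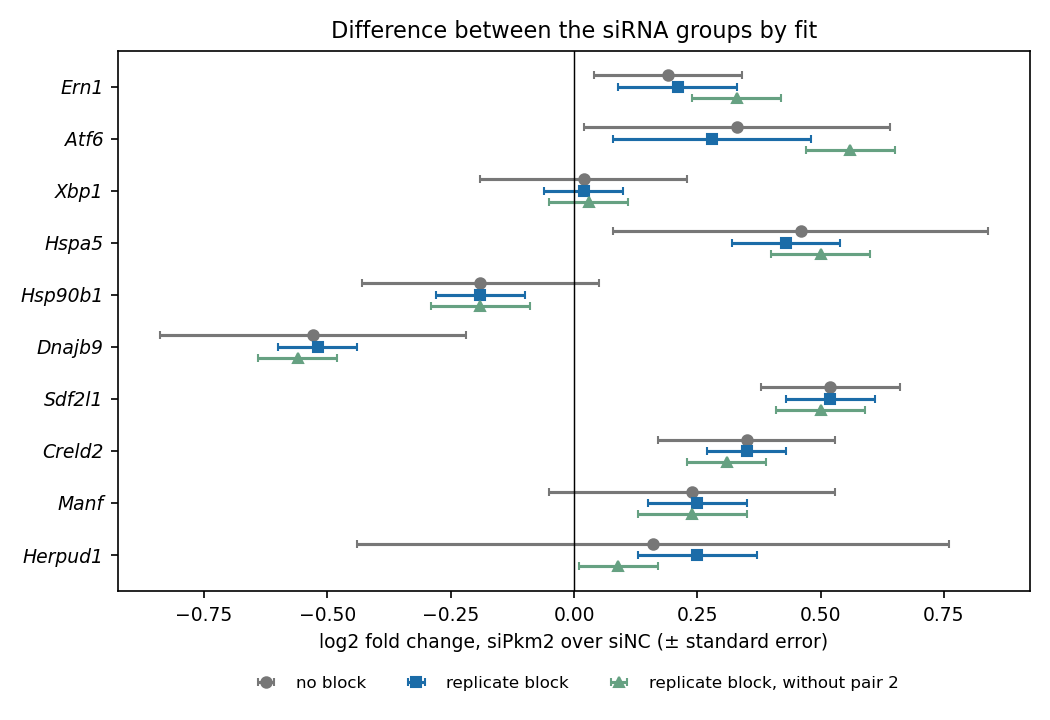
Log2 fold change of siPkm2 against siNC for each of the 10 genes, with SE, from the edgeR fit without the replicate block, with the block, and with the block after leaving out pair 2. Dnajb9 and Hsp90b1 lie below 0, and the SEs are narrower with the block, as for Hspa5 (0.38 without and 0.11 with it).

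The spread over the libraries was also divided by its source. When the sum of squares of log2(CPM + 0.5) was divided between group, replicate number and the rest, the replicate number took a median of 73.3% over the 10 genes (56.6% over all genes) and the group 17.3% (24.4% over all genes). At the ends stood Xbp1, with 99.4% by replicate and 0.2% by group, and Sdf2l1, with 12.0% by replicate and 87.0% by group. Dnajb9, Creld2 and Ern1 gave the group 32.7%, 49.7% and 35.9%, whereas Herpud1 gave it 2.28% and the replicate number 96.0%.

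**Figure D3:**
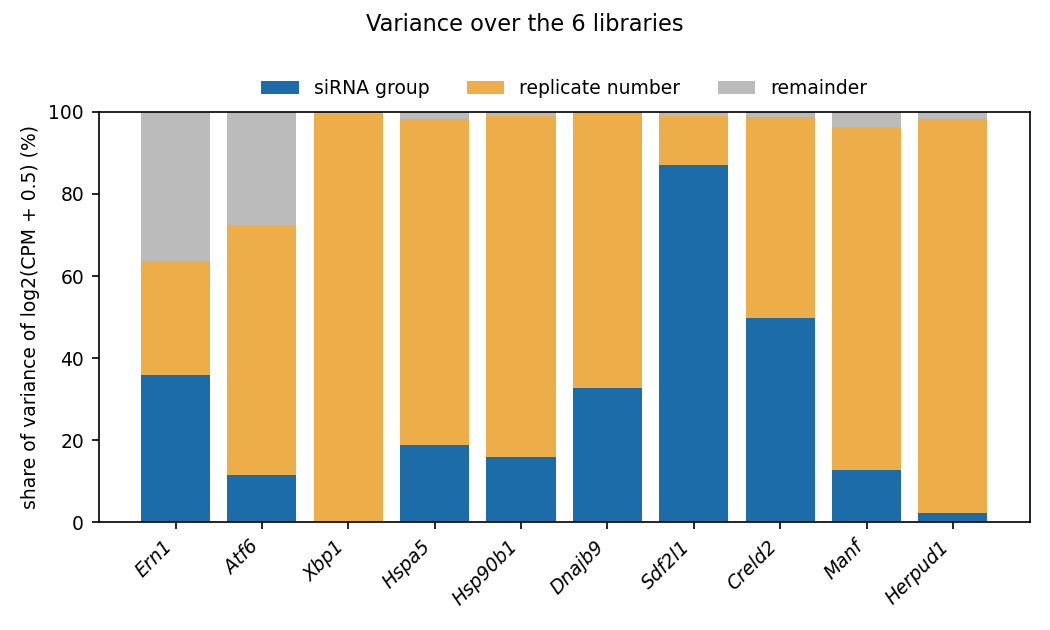
Share of the sum of squares of log2(CPM + 0.5) (percent) over the 6 libraries taken by group, by replicate number and by the rest, for each of the 10 genes. The replicate share runs from 12.0% in Sdf2l1 to 99.4% in Xbp1.

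Because all genes of a library share its scaling, members were also set against each other within a library, in pairs chosen after their values had been seen and given here without a test. The TPM ratio of Hspa5 to Hsp90b1 was 1.03, 0.761 and 0.988 in siNC and 1.53, 1.04 and 1.61 in siPkm2, so that it was higher after knockdown by 1.48, 1.37 and 1.63 fold in the 3 pairs. The ratio of Hspa5 to its co-chaperone Dnajb9 was 19.0, 16.9 and 15.0 in siNC and 35.6, 27.7 and 32.4 in siPkm2, with no overlap. Creld2 to Hsp90b1 was 0.0794, 0.086 and 0.0896 in siNC and 0.122, 0.132 and 0.119 in siPkm2. Of the genes with an ERSE in the printed windows, Hspa5 and Creld2 were higher and Hsp90b1 lower in each pair. The fall of Hsp90b1 did not pass the test (adjusted p = 0.176, edgeR with the block). Each ratio set a gene that rose in every pair over one that fell in every pair, so its direction was fixed by the choice. This holds for pair 2 as well, whose libraries were low in Hspa5 itself.

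**Figure D4:**
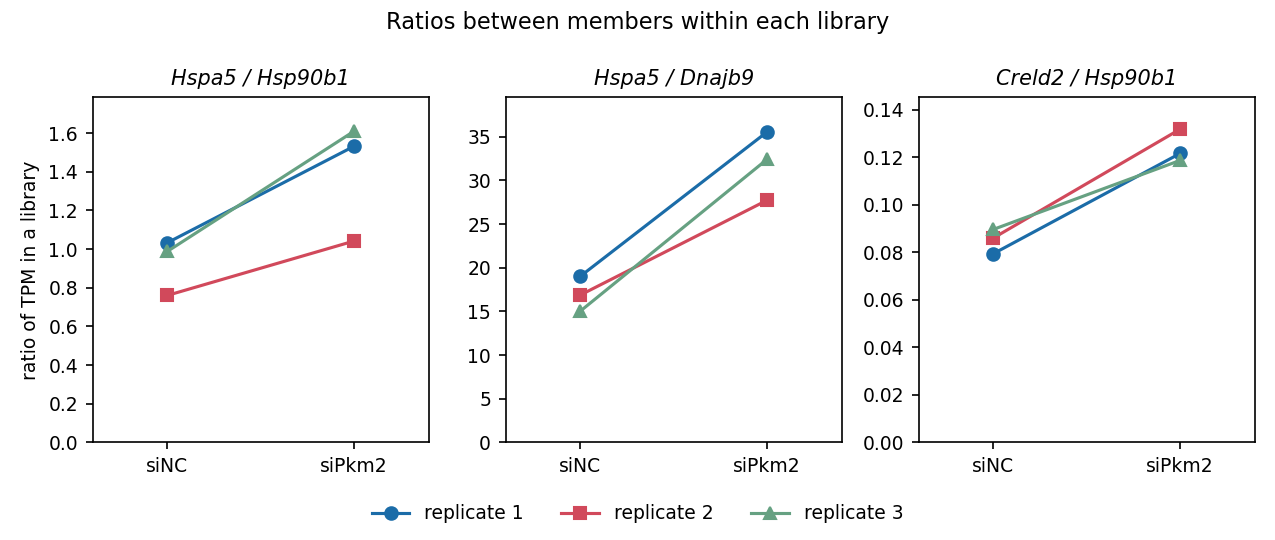
Ratio of TPM within each library for Hspa5 to Hsp90b1, Hspa5 to Dnajb9 and Creld2 to Hsp90b1 (linear axes from 0), with a line per replicate number. All 9 lines rise from siNC to siPkm2, a direction fixed by the choice of genes. The siPkm2 ratios of Hspa5 to Dnajb9 (27.7 to 35.6) lie above those of siNC (15.0 to 19.0).

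The rest of the pathway was read from 7 lists of 106 further genes, all tested. Within pairs 21 were higher (19.8%) and 12 lower (11.3%) at an adjusted p under 0.05 (edgeR with the block), with a median log2 fold change of 0.10. The same fit called 12.3% of all genes higher and 10.8% lower, with a median of -0.01. Without the block 0 were called and 16 had an unadjusted p under 0.05. All calls named from these lists come from the block fit.

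Among 11 other sensors and regulators 3 rose and 0 fell: Ptpn1, a phosphatase of the ER membrane, by 1.06 on the log2 scale (78.6 ± 18.1 to 163 ± 26.0 CPM, SD, n = 3), Creb3, a membrane-bound transcription factor, by 0.46, and Tmbim6, also called BAX inhibitor 1, by 0.39. In the PERK arm, which slows translation and raises ATF4, 1 of 12 rose (Sesn2, 0.45) and 1 fell (Ppp1r15b, a phosphatase subunit that reverses the arm's signal, -0.42). Atf4 and Ddit3, the transcription factors of this arm, had values of 0.10 and 0.26 that did not pass.

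Of 20 further ER chaperones 5 rose and 4 fell. Dnajc10, a J protein with reductase activity, went from 101 ± 6.58 to 150.3 ± 23.6 CPM, a log2 fold change of 0.56 (adjusted p = 0.0285, edgeR with the block). Hspa13 (0.56) and the lectin chaperone calreticulin (Calr, 0.45) also rose. Dnajc1 (-0.64), Fkbp2 (-0.46) and Sil1 (-0.47) fell. Hyou1, which with Sil1 exchanges the nucleotide of BiP, was named after its values were seen: it was at 230.3, 230.6 and 231 CPM in siNC and at 179, 145 and 182.2 CPM in siPkm2, a log2 fold change of -0.46.

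In ERAD 6 of 19 rose and 2 fell. Ube2g2, a ubiquitin-conjugating enzyme, rose from 77.4 ± 10.4 to 138 ± 12.4 CPM (log2 fold change 0.84), as did the lectin Os9 (0.43) and the channel component Derl1 (0.39), and the mannosidase-like Edem3 (-0.66) and the lectin Erlec1 (-0.33) fell. Of 23 genes of the translocon and signal peptidase 4 rose, among them Sec11a (0.54), Spcs2 (0.48) and Ssr2 (0.42), and 3 fell, Sec11c (-0.50), Tram1 (-0.50) and Srp9 (-0.40). The catalytic subunits Sec11a and Sec11c of the signal peptidase moved in opposite directions.

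IRE1 also cleaves other mRNAs, and of 7 known targets of this decay 0 rose and 2 fell. Sparc, a collagen-binding matrix protein, was at 6918, 3911 and 8632 CPM in siNC and at 1717, 846 and 1910.1 CPM in siPkm2. The groups did not overlap, and the log2 fold change within pairs was -2.13 (adjusted p = 0.00932, edgeR). Pdgfrb had -0.46. Of 15 genes for secreted matrix proteins, which pass through the ER, Dcn (1.28) and Matn3 (0.86) rose and Sparc fell. The list also holds Col1a1, Col1a2 and Col3a1, counted above as fibroblast markers. Its summed mRNA level was 100153, 41046 and 110473 CPM in siNC and 97158, 49059 and 106252 CPM in siPkm2. Seed sites of siPkm2 #3 were present in 5 of the 12 listed genes that fell (Sparc, Sec11c, Tram1, Hyou1 and Edem3) and in 2 of the 21 that rose. The share was 16.4% over all genes with a 3′ UTR, and was not taken over all genes called in this fit. Sites of siPkm2 #1 and #2 were not counted here, and which siRNA the cultures received is not stated. The part of these sites was not tested.

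The genes were also placed by the annotation that the deposited table carries, in terms chosen after it had been seen. All 10 were annotated to the endoplasmic reticulum, as were 805 other tested genes, of which 18.0% were higher and 11.6% lower within pairs, where all genes gave 12.3% and 10.8%. The shares were 16.7% and 14.3% for 84 other genes of the ER lumen, 15.9% and 11.5% for 546 of the ER membrane, 24.1% and 17.2% for 58 of the response to ER stress, and 18.8% and 3.12% for 32 of the ER unfolded protein response. Among 18 other tested genes with an ERSE in their window 3 were higher (Calr, Syvn1 and Adcy3) and 2 lower (Pan2 and Zfp57), close to the shares of all genes, and the median was -0.30.

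The genes nearest to the mean profile of the 10 over the 6 libraries, by root mean square distance of centred log2 CPM, were Caprin1 (0.032), Arl1 (0.0329), Cc2d1b (0.0359), Casd1 (0.0363) and Klhdc2 (0.0384), where the median over all 15269 genes was 0.42. Of the 10 themselves Xbp1 lay nearest to their mean (0.09) and Herpud1 farthest (0.56). The mean profile was lowest in both libraries of replicate 2.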

How the data were processed

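RNA for the 3 siNC and 3 siPkm2 libraries was extracted with TRIzol, and the libraries were made and sequenced by a service provider. The authors deposited a table of estimated counts per gene, of which 11.3 to 13.8% of values per library were not whole, and TPM values. Its columns of fold changes and p-values were not used. The processing notes list edgeR and the build mm9. The aligner and counter are not given in the sources used here. Of the gene IDs 94.0% were in GENCODE M21 (GRCm38), which gave the positions and 3′ UTRs, and promoter windows were from RefSeq.

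Counts were rounded to whole numbers and tested with edgeR 4.0.16 in R 4.3.3 (filterByExpr, TMM, quasi-likelihood F test, Benjamini-Hochberg adjustment over 15269 genes, calls at an adjusted p under 0.05). The SE given for an edgeR fit was derived from this test, as the absolute log2 fold change over the square root of F. Alternatives were DESeq2 1.42.0, limma 3.58.1 on log2(TPM + 1), other filters and factors, the replicate block, and leaving out libraries. The labels do not say whether replicates were separate cultures or animals, so p-values measure the spread between these libraries, which may be technical. In each pair of replicates of a group 52.6 to 73.4% of genes differed beyond sampling noise, so none was counted as a duplicate. The pairing rests on the replicate numbers in the titles and on the correlations given above, with the limit stated there.

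The 10 genes and the lists were chosen with earlier results of these data known. All 10 genes were named, with Pkm, up to 3 higher and 3 lower called genes of each list by size in the block fit, the 5 genes nearest in profile, and markers as sums. Single markers beyond Col2a1, Acan and Sox9 were named after their values were seen. Tests were run on simulated data before use. Neonatal age is from the labels, while the supplementary methods describe chondrocytes of older mice.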

Additional observations from a re-analysis of the deposited data

How the results depend on the processing

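Without the block edgeR called 0 genes. The number was 3524 with the replicate block, 829 with DESeq2, 3868 with DESeq2 and the block, 3 with upper-quartile factors, 9 without a filter, 3 with at least 10 counts in every library, and 1 and 2411 with limma on TPM without and with the block. Leaving out libraries gave 0 to 105 (105 without replicate 2 of siNC), and leaving out pairs with the block gave 0 to 5941 (5941 without pair 2). At a fold over 2 the numbers in the same order were 890, 430, 1028, 3, 9, 3, 1 and 537, with 0 to 105 and 0 to 1639 when libraries or pairs were left out.

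Of the 10 genes 4 were called with the block and with DESeq2 and the block, 2 with limma and the block (Dnajb9 and Sdf2l1), and 0 to 6 when pairs were left out. Of the 106 genes of the 7 lists 33 were called with the block, 4 with DESeq2, 39 with DESeq2 and the block, 23 with limma and the block, and 0 to 53 when pairs were left out. The median of the 10 ranged from 0.075 (without replicate 1 of siPkm2) to 0.438 (without replicate 2 of siPkm2), and was 0.424 and 0.141 without replicates 1 and 2 of siNC. Pkm was past the threshold with the block (-2.53, adjusted p = 0.00932, edgeR), with DESeq2 (-2.50), with DESeq2 and the block (-2.52), with limma and the block (-2.53), and at -2.34 without replicate 2 of siNC and -2.63 with the block without pair 2, within a range of -2.34 to -2.80 when libraries or pairs were left out.

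Over 18 alternatives 171 of 180 values of the 10 genes kept their direction. Xbp1 reversed to -0.04 with upper-quartile factors and with limma with and without the block, and to -0.11, -0.06 and -0.06 without replicate 2 of siNC and replicates 1 and 3 of siPkm2. Herpud1 reversed to -0.25, -0.05 and -0.06 without the same libraries. When libraries or pairs were left out they spanned -0.11 to 0.18 and -0.25 to 0.51. Neither gene was called in any of these fits, and the cause was not tested. The block changed no call among the 10 other than those given.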
